A study of Homo sapiens with 8 samples.

Results

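The transcriptome of SW620 cells given AFZC was compared with that of SW620 cells given 5-fluorouracil (5-FU). SW620 is an established human colorectal carcinoma line grown from a lymph node metastasis. The comparison rests on the 4 SW620 libraries of the 8 in the series, 2 labelled 5-FU and 2 labelled AFZC, and the other 4 are HCT116 cells, another colorectal carcinoma line, given the same agents. The sample labels do not spell out AFZC. The series title describes the nanodrug as a metal-organic framework that encapsulates 5-FU and is modified with an aptamer, a nucleic acid selected to bind a target. Both groups were exposed for 24 h, each agent at its own IC50, the concentration at the midpoint of the viability curve, and neither concentration is stated in the labels. Untreated SW620 cells and the carrier without drug are not analysed here, so each value below describes AFZC relative to 5-FU at doses chosen for equal potency. Of the 57169 genes in the count table, 21378 had enough counts to be tested.

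Free 5-FU is converted in the cell to a nucleotide that traps thymidylate synthase, which starves DNA synthesis of thymidine, and to ribonucleotides and deoxyribonucleotides that enter RNA and DNA. Cells exposed to it commonly slow or halt in S phase. Genes for replication are read in late G1 and S phase under the E2F factors, and genes for mitosis are read later, largely through the MuvB complexes that bind a cell cycle homology region (CHR) close to the start site. Peroxidative death, named in the title, is usually followed through glutathione, iron and lipid peroxidation genes, which are given below beside the genes of the cell cycle.

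The deposited counts gave totals of 33520117 and 40590291 in the 5-FU libraries and 31991561 and 33426910 in the AFZC libraries. Counts were found for 24744 and 24427 genes under 5-FU and for 27591 and 26597 under AFZC. The 100 most abundant genes took 24.1% and 24.5% of counts under 5-FU and 16.6% of counts in each AFZC library. Across genes, log2 values of the 5-FU pair correlated at 0.984 and those of the AFZC pair at 0.980, against 0.955 to 0.965 for pairs of 1 library from each group, which share genes and are not independent points. Markers of colonic epithelium were present: EPCAM was at 582 and 658 against 481 and 463 CPM and CDX2 at 48.9 and 47.9 against 48.3 and 36.2 CPM. Among markers of blood, endothelial and fibroblast cells, PTPRC, CD3E, CD2, MS4A1, TYROBP, DCN, FAP, COL3A1, HBB and KDR were at or near 0 in all 4 libraries, while others on the same lists, given further on, rose under AFZC. A check for HCT116 material took the 37 genes above 20 CPM in every HCT116 library and under 0.1 CPM in both SW620 5-FU libraries. Their median was 0.0282 and 0 CPM in the AFZC libraries. CPM are counts per 1000000 scaled with trimmed-mean factors, and where 4 values are joined by "against" or "to" the 5-FU pair comes first, each pair in the order of its replicate numbers. Adjusted p-values are two-sided, from edgeR's quasi-likelihood test with Benjamini-Hochberg adjustment over all genes tested, and a gene is said to rise or fall where this value was under 0.05.

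AFZC raised 2482 genes and lowered 1486 relative to 5-FU, 18.6% of the genes tested (11.6% higher and 6.95% lower). These shares are the ones to set beside the counts of each gene list below. The rises were larger: 1948 genes rose and 458 fell at least 2-fold, and 1082 rose and 63 fell at least 4-fold. The direction followed abundance. Among the fifth of genes with the lowest mean level, 9.71% rose and 0.631% fell, and among the fifth with the highest level 4.02% rose and 21.4% fell. The median log2 fold change ran from 0.67 in the lowest of these 5 classes to -0.24 in the highest. Of protein-coding genes 14% rose and 8.44% fell. Long intergenic RNAs rose in 9.7% and fell in 1.95%, and processed pseudogenes rose in 1.95% and fell in 7.8%. Because the scaling assumes that most genes are level, it bears on the split: with library totals in place of trimmed-mean factors the median gene shifted by 0.40 on the log2 scale and 92% of calls were rises, against 62.6%. In bulk RNA, fewer cells that carry a transcript and less of it per cell cannot be told apart, and that holds for every value here. Whether the paired libraries of an agent stem from separate cultures is not stated, and all p-values reflect their spread, which could be technical. The number of rises was 1135 and of falls 448 without 5-FU replicate 2, the largest drop from leaving out 1 library. It was 1531 and 796 without 5-FU replicate 1, and 1615 and 859 without AFZC replicate 1.

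**Figure D1:**
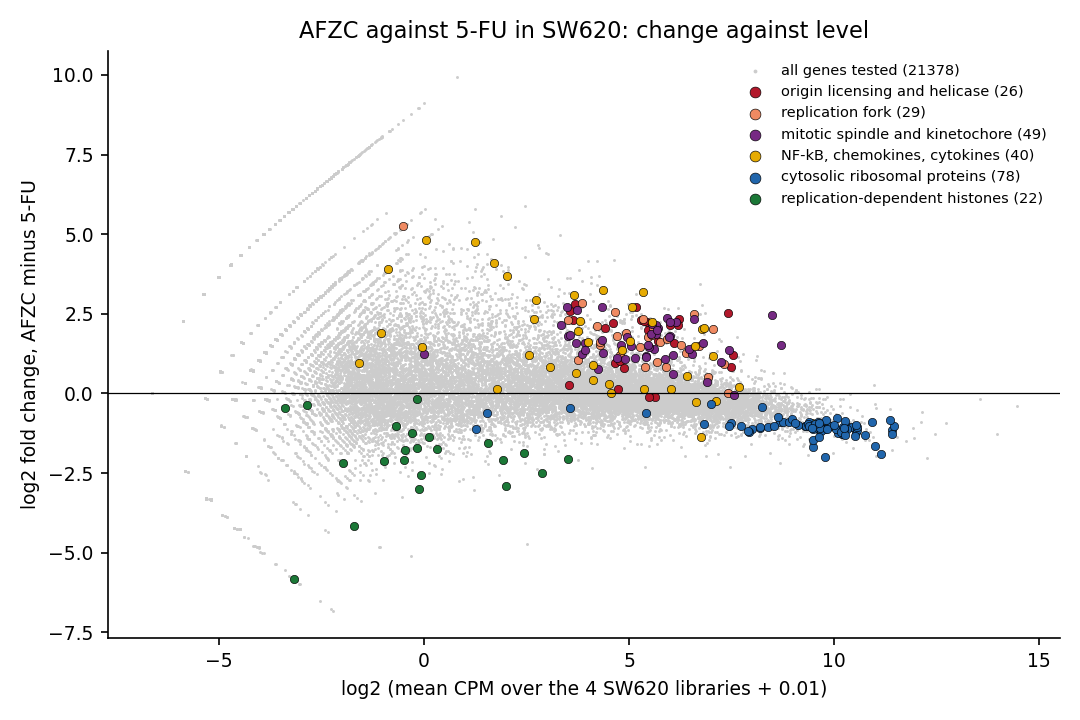
Log2 fold change (AFZC minus 5-FU, vertical) against log2 of the mean CPM over the 4 SW620 libraries plus 0.01 (horizontal), for the 21378 genes tested (grey) and 6 gene lists (coloured). Replication and mitosis genes lie above 0 at middle levels, ribosomal protein genes lie below 0 at the right edge, and the diagonal streaks at the left are genes with 0 or very few counts in 1 group.

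Genes that assemble and fire replication origins were higher under AFZC: 22 of the 26 tested rose and 0 fell, with a median log2 fold change of 2.02 against 0.03 over all genes. GINS2, a subunit of the GINS complex that joins CDC45 and the MCM ring into the active helicase, was at 3.34 and 3.35 CPM in the 5-FU libraries and at 22.1 and 18.6 CPM in the AFZC libraries (log2 fold change 2.6 ± 0.209 (SE), adjusted p = 8.49e-06). The AFZC libraries were both far above the 5-FU pair, whose values were nearly equal. CDC45, the partner of GINS at the fork (chromosome 22, 19479459 to 19520612), was at 12.8 and 6.5 against 65.6 and 59.7 CPM (log2 fold change 2.7 ± 0.264 (SE), adjusted p = 3.39e-05). MCM4, a subunit of the MCM ring, was at 54.8 and 46.1 CPM under 5-FU and 297 and 280.1 CPM under AFZC (log2 fold change 2.52 ± 0.16 (SE), adjusted p = 4.73e-06). GINS4 rose by 2.81 on the log2 scale (adjusted p = 7.65e-06), from 3.41 and 2.96 to 23.7 and 21 CPM, and for these 4 genes the groups did not overlap. Further licensing genes that rose were CDC6, which loads the MCM ring, with 2.33, ORC1 with 2.23, CDT1 with 1.65, and the MCM ring members MCM2 to MCM7 with 0.85 for MCM7 to 2.52 for MCM4. No member was lower at an unadjusted p under 0.05, and the same held for the fork, mitosis and recombination lists below. The 4 that did not pass were ORC2 (-0.12), ORC4 (-0.12), ORC5 (0.25) and DBF4 (0.14). ORC2, ORC4 and ORC5 are origin recognition subunits, and DBF4 is the activator of the CDC7 kinase.

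The promoters of 4 of these origin genes are printed. They were taken from the largest rises among members that held an E2F site, apart from genes on a chromosome that was left out. In each the site begins within 31 bases of the start. They are RefSeq sequences of GRCh38.p14, from 250 bases before to 50 bases after the start, on the strand of the gene, and the capitals mark a match to TTTCCCGC, TTTCGCGC, TTTGCCGC or TTTGGCGC or its reverse complement.
GINS2: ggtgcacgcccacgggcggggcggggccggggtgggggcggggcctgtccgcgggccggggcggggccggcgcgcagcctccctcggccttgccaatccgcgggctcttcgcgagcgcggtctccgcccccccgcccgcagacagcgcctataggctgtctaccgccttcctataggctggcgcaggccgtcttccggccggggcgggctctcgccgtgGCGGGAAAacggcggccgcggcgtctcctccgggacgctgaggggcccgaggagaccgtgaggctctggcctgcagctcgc
CDC6: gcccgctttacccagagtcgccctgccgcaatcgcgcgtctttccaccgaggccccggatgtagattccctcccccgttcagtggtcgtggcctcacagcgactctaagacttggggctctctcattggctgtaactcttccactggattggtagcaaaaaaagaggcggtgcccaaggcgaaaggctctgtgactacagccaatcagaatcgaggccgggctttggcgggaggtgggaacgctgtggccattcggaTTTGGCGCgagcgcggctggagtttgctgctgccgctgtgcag
GINS3: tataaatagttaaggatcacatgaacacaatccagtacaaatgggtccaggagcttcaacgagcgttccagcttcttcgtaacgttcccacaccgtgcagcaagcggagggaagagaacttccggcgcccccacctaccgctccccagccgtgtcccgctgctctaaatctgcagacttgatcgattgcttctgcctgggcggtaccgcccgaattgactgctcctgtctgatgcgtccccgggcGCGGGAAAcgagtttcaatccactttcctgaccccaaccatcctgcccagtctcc
GINS1: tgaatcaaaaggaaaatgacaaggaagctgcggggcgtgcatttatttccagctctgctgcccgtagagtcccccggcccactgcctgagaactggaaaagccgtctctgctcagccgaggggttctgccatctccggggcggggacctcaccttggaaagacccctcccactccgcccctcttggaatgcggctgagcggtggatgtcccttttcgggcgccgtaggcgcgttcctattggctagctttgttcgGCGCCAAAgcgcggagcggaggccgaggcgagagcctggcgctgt
GINS2 covers chr16:85688905-85689204 on the minus strand, with the site beginning at -31 from the start. CDC6 covers chr17:40287629-40287928 on the plus strand, with the site at 8, GINS3 covers chr16:58392221-58392520 on the plus strand, with the site at -5, and GINS1 covers chr20:25407423-25407722 on the plus strand, with the site at 6. CDC6 was at 26.2 and 23 CPM under 5-FU and 102 and 145 CPM under AFZC, GINS3 at 5.3 and 2.99 against 19 and 22.3 CPM, and GINS1 at 14.4 and 13.7 against 69.9 and 65.6 CPM. All 4 were above their 5-FU values in both AFZC libraries. The same letters, searched on both strands, were found in 11 of the 22 origin gene promoters matched (50%), in 9 of 25 of replication fork genes (36%) and in 7 of 30 of recombination genes (23.3%), against 4.89% of all 13080 promoters matched. Of promoters with the site, 19.4% belonged to genes that rose and 6.88% to genes that fell. Without it these shares were 13.1% and 8.27%. A match describes letters in the window and not binding.

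At the replication fork 28 of 29 genes rose and 0 fell (median log2 fold change 1.61). PCNA, the sliding clamp (chromosome 20, 5114953 to 5126626), was at 54.3 and 50.7 CPM under 5-FU and 217 and 211 CPM under AFZC (log2 fold change 2.03 ± 0.171 (SE), adjusted p = 1.06e-05), with close values within each pair. FEN1, the flap endonuclease that trims Okazaki fragments, was at 33.4 and 24.4 against 173 and 155 CPM, a log2 fold change of 2.51 (adjusted p = 7.42e-06). POLA2, a subunit of the polymerase that lays primers, rose by 2.84 and CLSPN, the claspin mediator of fork stability, by 2.57 (adjusted p = 3.39e-05 and 1.47e-05). The 5 subunits of replication factor C, which loads the clamp, rose by 0.51 (RFC1) to 1.77 (RFC5), and LIG1, which seals the fragments, rose by 1.81. The member that did not pass was POLD2, a subunit of polymerase delta, with 0.03. RNASEH2A, a subunit of the enzyme that removes ribonucleotides from DNA, had 0 and 2 counts under 5-FU and 58 and 38 under AFZC, 41.8-fold (95% exact interval 11.3 to 350) higher by pooled counts. That value is uncertain because 30.8% of the bases of its exons also belong to THSD8.

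Among E2F factors, pocket proteins and the MuvB complex, 12 of 19 rose and 0 fell. E2F8, an E2F repressor that is itself read in S phase, was at 1.79 and 1.72 CPM under 5-FU and 30.4 and 20.8 CPM under AFZC (log2 fold change 3.87 ± 0.323 (SE), adjusted p = 1.05e-05). This was the largest rise of the list, and both AFZC libraries were more than 10 times the 5-FU pair. E2F1, an activator of the family, was at 18.8 and 23.1 against 98.9 and 98.1 CPM (log2 fold change 2.23, adjusted p = 7.65e-06). MYBL2, which joins MuvB in S phase, rose by 2.79 and FOXM1, which follows it in G2, by 2.35 (adjusted p = 4.73e-06 and 0.000104). E2F4, a factor of resting cells, had 0.06, and RBL2, its pocket protein partner, had -0.21, neither of which passed. Of 21 cyclins, cyclin-dependent kinases and their phosphatases, 14 rose and 2 fell. CCNE2, a cyclin of the G1/S boundary, rose by 2.96, CCNA2, the S and G2 cyclin, by 1.95, and CDC25C, the phosphatase that frees CDK1, by 2.88 (adjusted p = 0.000145, 3.91e-05 and 3.42e-05). The 2 that fell act early in G1, CCND1 (-0.89, adjusted p = 0.0186) and CDK6 (-0.78, adjusted p = 0.0248). With library totals as scaling 0 members of the list fell, and so it was with each library's trend against level taken out. The 2 falls also rested on single libraries. Of 7 inhibitors of these kinases 2 rose and 1 fell. CDKN2C, which blocks CDK4 and CDK6, rose from 3.2 and 3.11 to 12.4 and 8.2 CPM (adjusted p = 0.00169). CDKN1A, the p21 inhibitor, was at 71.2 and 99.9 against 158 and 123 CPM (log2 fold change 0.71, adjusted p = 0.0302), a call that was lost without 5-FU replicate 1 (adjusted p = 0.247) or AFZC replicate 1 (adjusted p = 0.156).

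**Figure D2:**
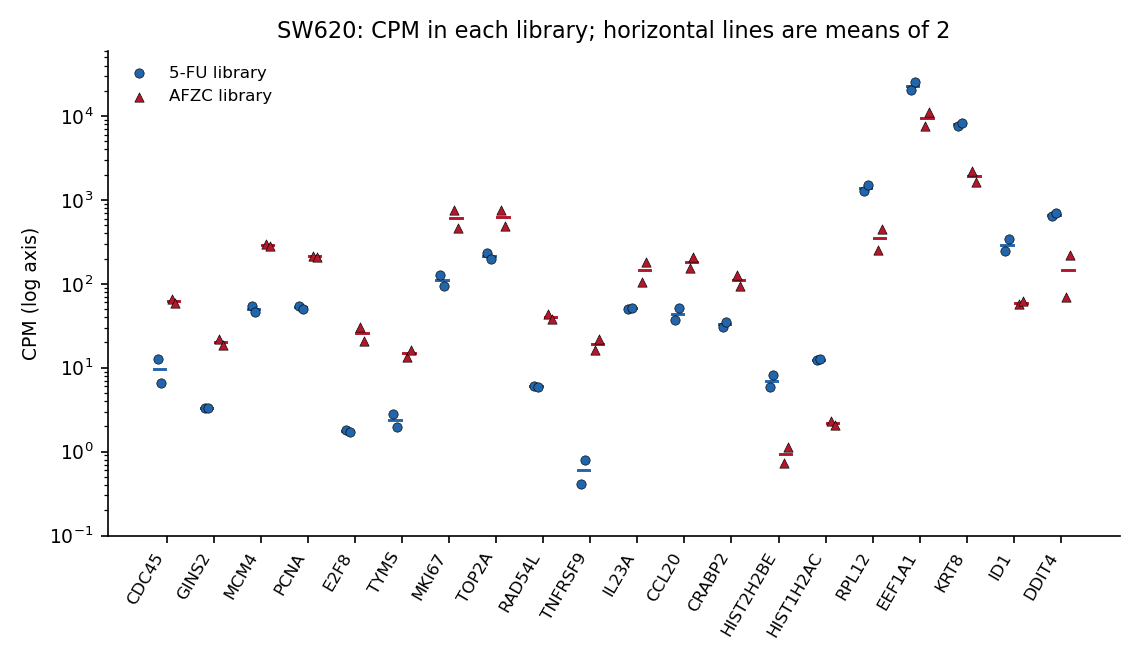
CPM on a log axis for 20 genes in each SW620 library, with circles for 5-FU, triangles for AFZC and horizontal lines for the means of 2. The groups do not overlap for any gene drawn, with AFZC higher from CDC45 to CRABP2 and lower from HIST2H2BE to DDIT4.

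Mitosis genes rose as well: 41 of 49 rose and 0 fell (median log2 fold change 1.54). MKI67, the proliferation antigen that coats mitotic chromosomes, was at 129 and 93.5 CPM under 5-FU and 754 and 464 CPM under AFZC (log2 fold change 2.45 ± 0.322 (SE), adjusted p = 0.000633). SPC24 and SPC25, subunits of the kinetochore's NDC80 complex, rose by 2.7 and 2.73, and CENPI, another kinetochore protein, by 2.62 (adjusted p = 1.34e-05, 4.49e-05 and 0.000143). AURKB, the kinase of the chromosomal passenger complex, rose by 2.36 and its partner BIRC5 by 2.15. TOP2A, the topoisomerase that untangles sister chromatids, was at 233 and 198 against 754 and 494 CPM (log2 fold change 1.54, adjusted p = 0.00247). AFZC replicate 1 was the higher of its pair for both, and the summed level of the list was 1803 and 1610 CPM under 5-FU and 5302 and 4164 CPM under AFZC. The 8 that did not pass were BUB3, PLK1, CENPE, CENPF, ASPM, PRC1, ECT2 and HMMR, with log2 fold changes of -0.03 for BUB3 to 1.6 for CENPF.

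Windows around the CHR of 3 mitosis genes are printed, to show the element that most promoters of the list held. They were taken from the largest rises among members that held it and could be printed with 26 bases on each side. The sequence is from RefSeq on GRCh38.p14. Capitals mark the first match to TTTGAA, or to TTCAAA where it lies on the opposite strand. A later match in the MKI67 window is left in lower case.
MKI67: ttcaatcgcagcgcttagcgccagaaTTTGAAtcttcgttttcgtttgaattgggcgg
ESPL1: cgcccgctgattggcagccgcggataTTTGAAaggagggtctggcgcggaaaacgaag
ZWINT: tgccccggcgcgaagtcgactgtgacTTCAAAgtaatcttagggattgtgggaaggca
The windows lie at chr10:128126439-128126496 on the minus strand for MKI67, chr12:53268242-53268299 on the plus strand for ESPL1 and chr10:56361259-56361316 on the minus strand for ZWINT, with the element at -47, -31 and -31 from the start. ESPL1, the separase that cuts cohesin, was at 33.3 and 30.4 CPM under 5-FU and 189 and 133 CPM under AFZC. ZWINT, a kinetochore protein, was at 25.4 and 18.9 against 107 and 105 CPM. Both were above the 5-FU pair in both AFZC libraries. TTTGAA, searched on both strands, was in 29 of 40 promoters of the mitosis list (72.5%) and in 10.1% of all promoters. It was found in 12.5% of the promoters of genes that rose and in 6.71% of those of genes that fell.

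**Figure D3:**
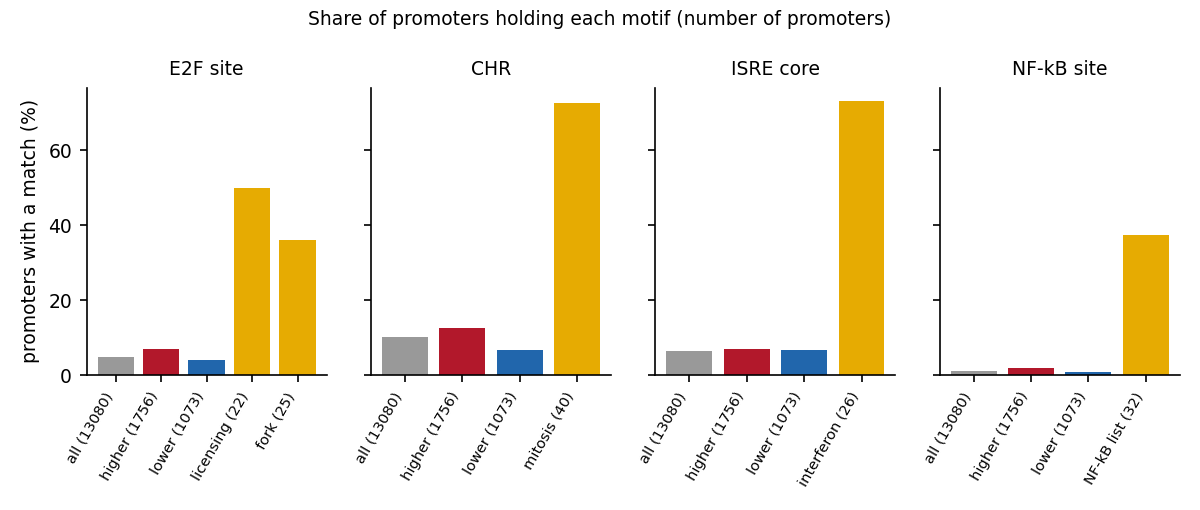
Percent of RefSeq promoters (300 bases) with a match to each of 4 motifs, for all promoters matched, those of genes that rose or fell, and gene lists, with the number of promoters in brackets. The lists stand at 36% to 73.1%, and the genes that rose stand within 3 percentage points of all promoters for every motif.

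Condensins, which fold mitotic chromosomes, and cohesin and its regulators had 12 of 20 members higher and 0 lower. The members that rose were led by ESCO2, which acetylates cohesin in S phase, from 2.82 and 2.08 to 30.1 and 31.8 CPM (log2 fold change 3.66, adjusted p = 4.73e-06), and CDCA5, the sororin that keeps sister chromatids together, from 36.1 and 33.3 to 205 and 190.3 CPM (log2 fold change 2.51, adjusted p = 4.73e-06). The condensin subunits NCAPG and NCAPH rose by 2.1 and 2.04. Cohesin loaders and releasers that act throughout the cycle, NIPBL (-0.23), WAPL (-0.22) and PDS5A (-0.05), did not pass. Homologous recombination and Fanconi genes, which repair broken and crosslinked forks, had 27 of 33 higher and 0 lower (median log2 fold change 1.58). RAD54L, a motor of strand exchange, was at 6.09 and 5.86 CPM under 5-FU and 43.6 and 37.7 CPM under AFZC (log2 fold change 2.77 ± 0.194 (SE), adjusted p = 7.41e-06). BRCA1 was at 21.9 and 12.3 against 98.9 and 114 CPM (adjusted p = 5.14e-05), EXO1, a resection nuclease, rose by 2.71, and EME1, which cuts joint molecules, by 2.68. Checkpoint genes had 6 of 14 higher and 0 lower, with 3 higher on leaving out 1 or the other 5-FU library and 4 without AFZC replicate 2, among them CHEK2 (1.42, adjusted p = 0.000386) and the scaffold MDC1 (1.21, adjusted p = 0.000329), while the kinases ATM (0.11) and ATR (0.22) did not pass.

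Mismatch and uracil excision repair held 4 rises and 1 fall among 21 genes, with 2 rises without 5-FU replicate 2 and 13 with library totals. NEIL3, a glycosylase of S phase, was at 3.03 and 1.96 CPM under 5-FU and 21.4 and 21.6 CPM under AFZC (a log2 fold change of 3.11, adjusted p = 4.66e-05). UNG, which takes uracil and fluorouracil out of DNA, had 0.36 (adjusted p = 0.175).

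Thymidylate, folate and nucleotide synthesis held 10 rises and 6 falls among 35 genes (2 falls on leaving out 1 or the other 5-FU library, 3 without AFZC replicate 1), with enzymes that supply deoxynucleotides among the rises. TYMS, thymidylate synthase itself (chromosome 18, 657604 to 673578), was at 2.82 and 1.96 CPM under 5-FU and 13.3 and 16.3 CPM under AFZC (log2 fold change 2.63 ± 0.282 (SE), adjusted p = 6.7e-05), although 46.6% of its exon bases are shared with ENOSF1, which runs on the opposite strand, and the libraries did not keep the strand. TK1, the thymidine kinase that salvages thymidine in S phase, was at 34.4 and 29.7 against 185 and 178 CPM (log2 fold change 2.5 ± 0.178 (SE), adjusted p = 7.42e-06). RRM2, the S phase subunit of ribonucleotide reductase, was at 13.6 and 6.98 against 63.5 and 63.4 CPM (adjusted p = 3.6e-05). For all 3 the groups did not overlap. DUT, which keeps uracil nucleotides out of DNA, rose by 1.57 and DTYMK, the next kinase after thymidylate synthase, by 1.4. Those that fell included MTHFD1L (-1.05) and SHMT2 (-0.76), enzymes of the mitochondrial folate cycle, and IMPDH2 (-0.91), which leads to guanine nucleotides. Of 19 genes that take up, activate or break down 5-FU, 2 rose and 2 fell. DPYD, which breaks down most 5-FU in the body, was at 11.3 and 9.24 against 18 and 10.2 CPM (log2 fold change 0.45, adjusted p = 0.385), with overlapping groups. ABCC3, an exporter of conjugates, fell from 276 and 299.6 to 91.6 and 134 CPM (adjusted p = 0.000423), and SLC29A1, a nucleoside carrier, had 46.6 and 43.6 against 72.1 and 78.5 CPM (adjusted p = 0.00387, and 0.0619 without 5-FU replicate 2).

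Core histone genes moved the other way. Of 58 replication-dependent histone genes listed, 22 had enough counts to be tested, 12 of these fell (8 on leaving out 1 or the other 5-FU library) and 0 rose, and the median log2 fold change was -1.96. Their main transcripts end in a stem-loop without a poly(A) tail, so the oligo(dT) selection of these libraries would see a small polyadenylated share of them. HIST2H2BE, an H2B gene, was at 5.85 and 8.19 CPM under 5-FU and 0.732 and 1.14 CPM under AFZC (log2 fold change -2.9 ± 0.41 (SE), adjusted p = 0.000519). HIST1H2AC, an H2A gene, was at 12.3 and 12.7 against 2.31 and 2.09 CPM (log2 fold change -2.5 ± 0.313 (SE), adjusted p = 0.000212), and HIST1H1C, a linker histone, at 18.5 and 17.9 against 4.76 and 4.02 CPM (adjusted p = 0.00101). For these 3 both AFZC libraries were below both 5-FU libraries. HIST1H3H had 17 and 18 counts under 5-FU and 2 and 0 under AFZC, a ratio of AFZC to 5-FU of 0.0498-fold (95% exact interval 0.0058 to 0.194). Among replacement histones and chaperones 6 of 20 rose and 3 fell. Linker histones encoded outside the histone clusters fell, H1F0 from 2655 and 3042 to 959 and 1230 CPM and H1FX from 181 and 190.3 to 41.7 and 53.9 CPM (adjusted p = 0.000551 and 4.17e-05). ASF1B, a chaperone that hands new histones to the fork, rose from 19.7 and 18.1 to 109.8 and 96.8 CPM, and SLBP, the protein that binds the histone stem-loop, by 0.87 (adjusted p = 4.73e-06 and 0.00309). Of DNA methylation and Polycomb genes 6 of 23 rose and 2 fell, with 3 rises without 5-FU replicate 2. Those that rose included UHRF1 (1.36, adjusted p = 5.26e-05) and DNMT1 (1.14, adjusted p = 0.000665), the pair that copies methylation onto new DNA.

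Transcripts of the cytosolic ribosome fell nearly throughout: 74 of 78 ribosomal protein genes fell and 0 rose, and the log2 fold changes ran from -1.99 to -0.34. The list summed to 91683 and 103765 CPM under 5-FU and to 40631 and 49077 CPM under AFZC, or 7.94% and 8.46% against 4.51% and 5.26% of raw counts. RPL12, a protein of the large subunit stalk base, was at 1290 and 1521 CPM under 5-FU and 252 and 455 CPM under AFZC (log2 fold change -1.99 ± 0.285 (SE), adjusted p = 0.000709). RPS2, of the small subunit, was at 2946 and 3298 against 826 and 1178 CPM (log2 fold change -1.64 ± 0.222 (SE), adjusted p = 0.000369). AFZC replicate 1 was the lower of its pair for both. EEF1A1, the elongation factor that brings in transfer RNA, was at 20590 and 25290 against 7620 and 11280 CPM (adjusted p = 0.00638), and EEF2, which moves the ribosome along, at 7650 and 8398 against 3083 and 3560 CPM (adjusted p = 0.00101). The call of EEF1A1 was lost without 5-FU replicate 2 (adjusted p = 0.0612). Since abundant genes fell in general, the fit was repeated with each library's trend against level taken out. This left 22 of the 78 lower, and the values of EEF1A1 and EEF2 were 0.16 and -0.09 (adjusted p = 0.668 and 0.779). Genes that build ribosomes, as opposed to being part of them, had 1 rise and 3 falls among 45, the falls being NPM1 (-1.17), NOB1 (-0.85) and FBL (-0.6), with adjusted p = 0.00232, 0.00146 and 0.027. Calls of NPM1 and FBL were lost with the trend taken out (0.0986 and 0.214). That of FBL was also lost without 5-FU replicate 1 (0.113), 5-FU replicate 2 (0.131) or AFZC replicate 1 (0.171) and with library totals (0.342), and the list had 9 falls without AFZC replicate 2.

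Of 13 mRNAs encoded in mitochondria 6 fell and 0 rose, but with the level trend taken out 1 fell and 4 rose, so that the direction of the list turned. It was 1 fall with library totals as scaling and 2 without 5-FU replicate 1. MT-ATP8, an ATP synthase subunit, was at 18 and 30.6 CPM under 5-FU and 8.64 and 10.1 CPM under AFZC (log2 fold change -1.38, adjusted p = 0.00192). MT-ND1 had -0.01 and MT-CO1 -0.17, neither of which passed. Nuclear genes of oxidative phosphorylation had 5 of 45 lower and 0 higher (3 lower on leaving out 1 or the other 5-FU library), among them UQCRB (-0.88) and COX7C (-0.84), subunits of complexes III and IV (adjusted p = 0.00153 and 0.00251). Glycolysis and hypoxia genes had 2 of 34 higher and 6 lower, with 3 lower without 5-FU replicate 2 or with library totals. SLC16A3, the lactate exporter, fell from 561 and 610 to 265 and 272 CPM and CA12, a carbonic anhydrase, rose from 2.34 and 2.27 to 38.2 and 15 CPM (adjusted p = 0.000463 and 0.000865).

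Of 23 keratins, the intermediate filaments of epithelia, 4 rose and 4 fell. The most abundant in SW620 fell: KRT8 (chromosome 12, 52897187 to 52949954) was at 7584 and 8338 CPM under 5-FU and 2231 and 1643 CPM under AFZC (log2 fold change -2.04 ± 0.265 (SE), adjusted p = 0.000279). Its partner KRT18 was at 3209 and 3366 against 836 and 841 CPM (log2 fold change -1.97 ± 0.248 (SE), adjusted p = 0.000221), and KRT19 fell by 1.46 (adjusted p = 0.00127). With the level trend taken out KRT8 was at -0.94 and KRT18 at -1.16 (adjusted p = 0.0308 and 0.00654). All 3 were below the 5-FU pair in both AFZC libraries, and the keratin list took 1.23% and 1.27% of raw counts under 5-FU and 0.526% and 0.457% under AFZC. The 4 that rose, KRT5, KRT6B, KRT20 and KRT79, were scarce under 5-FU. KRT20, of mature enterocytes, was at 2.31 and 2.42 against 29.1 and 12.8 CPM (log2 fold change 3.15, adjusted p = 0.000326), and KRT6B, of stratified epithelia, had 6 and 3 counts under 5-FU and 239 and 269 under AFZC, 49.2-fold (95% exact interval 25.7 to 108) higher by pooled counts.

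Inflammatory signalling genes of the NF-kB pathway rose: 21 of 40 rose and 2 fell, with a median log2 fold change of 1.48. NF-kB dimers are held in the cytoplasm by inhibitors such as NFKBIA until a receptor signal frees them, and they then switch on chemokines, cytokines and their own inhibitors. LTB, a membrane cytokine of the tumour necrosis factor family, was at 0.413 and 0.302 CPM under 5-FU and 8.84 and 3.54 CPM under AFZC (log2 fold change 4.11 ± 0.63 (SE), adjusted p = 0.000892). CSF3, the growth factor of granulocytes, had 8 and 2 counts under 5-FU and 172 and 150 under AFZC, 28-fold (95% exact interval 15.1 to 59) higher by pooled counts. Both start from very low levels under 5-FU. More abundant members also rose: IL23A, a cytokine subunit, was at 50.7 and 51.6 against 104 and 184 CPM (adjusted p = 0.002), and CCL20, a chemokine of the gut lining, at 37.1 and 51.1 against 156 and 211 CPM (adjusted p = 0.00288, but 0.051 without 5-FU replicate 1 and 0.386 with DESeq2). The neutrophil chemokines CXCL1, CXCL2 and CXCL3 rose by 2.71, 3.68 and 2.27, the adhesion molecule ICAM1 by 3.1, and the inhibitor NFKBIA by 1.37 (adjusted p = 0.0341, 0.00314, 0.00769, 2.9e-05 and 0.00573). CXCL8 was at 40.9 and 45.5 against 120 and 229.6 CPM and did not pass (adjusted p = 0.268). Of the dimer subunits NFKB1 rose by 0.91, while RELA (-0.23), RELB (0.29) and NFKB2 (0.54) did not pass. TNFRSF9, a receptor that NF-kB induces, had the largest rise among genes with a mean of at least 1 on the log2 CPM scale that are named by symbol, from 0.413 and 0.785 to 16.3 and 22 CPM (log2 fold change 4.98, adjusted p = 0.00526). That call was lost without 5-FU replicate 1 or 2 (adjusted p = 0.0852 and 0.0817), which leaves 1 library of under 1 CPM in that group.

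The kB sites of 3 of these genes are printed with 26 bases on each side. They were taken from the largest rises among members that held a site and could be printed in this way. The capitals mark GGGANTTTC or its reverse complement, in RefSeq sequence of GRCh38.p14.
LTB: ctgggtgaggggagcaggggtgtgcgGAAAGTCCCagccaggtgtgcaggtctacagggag
CXCL5: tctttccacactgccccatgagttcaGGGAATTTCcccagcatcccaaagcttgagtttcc
CXCL2: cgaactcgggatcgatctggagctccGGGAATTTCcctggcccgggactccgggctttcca
The windows lie at chr6:31582476-31582536 on the minus strand for LTB, chr4:73998734-73998794 on the minus strand for CXCL5 and chr4:74099239-74099299 on the minus strand for CXCL2, with the site at -85, -91 and -78 from the start. These letters, searched on both strands, were in 12 of 32 promoters of the NF-kB list (37.5%), in 1.22% of all promoters and in 2.05% of those of genes that rose. Of the 159 promoters with the site, 22.6% belonged to genes that rose, against 13.3% of promoters without it. CXCL5 had 0 and 4 counts under 5-FU and 36 and 36 under AFZC, a log2 fold change of 3.92. With the level trend taken out this was 1.04 and its call was lost (adjusted p = 0.606).

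Interferon-stimulated genes had 17 of 37 members higher and 0 lower (median log2 fold change 1.41), but 7 without 5-FU replicate 2 and 11 without AFZC replicate 1. OAS3, a sensor of double-stranded RNA, was at 20.9 and 18.3 CPM under 5-FU and 150 and 102 CPM under AFZC (log2 fold change 2.69 ± 0.205 (SE), adjusted p = 7.65e-06). IFIT1, which binds foreign RNA caps, was at 0.379 and 0.363 against 8.11 and 2.07 CPM (log2 fold change 3.77, adjusted p = 0.00157). AFZC replicate 1 was the higher of its pair in both, and the summed level of the list was 587 and 698 CPM under 5-FU and 1122 and 863 CPM under AFZC. CXCL10, a chemokine that interferon induces, had 0 counts in both 5-FU libraries and 24 and 33 in the AFZC libraries. Pooled, this is at least 16.5-fold higher when set against 3 counts over the 5-FU group. Its call was lost without 5-FU replicate 1 or 2 (adjusted p = 0.0512 and 0.0728) and with the level trend taken out (0.176). ISG15 (0.15), IRF7 (-0.25) and IRF1 (-0.43) did not pass, and the interferon genes IFNB1, IFNL1, IFNL2 and IFNL3 had too few counts to be tested. Windows around the interferon response element of 3 members are printed, from RefSeq on GRCh38.p14. The 3 were taken from the largest rises among members that held it and could be printed with both flanks. Capitals mark the first match to TTCNNTTTC or its reverse complement, and a later match in the IFIT1 window is left in lower case.
CXCL10: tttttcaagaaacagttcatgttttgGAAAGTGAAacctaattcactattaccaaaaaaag
IFITM1: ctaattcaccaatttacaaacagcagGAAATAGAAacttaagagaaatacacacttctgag
IFIT1: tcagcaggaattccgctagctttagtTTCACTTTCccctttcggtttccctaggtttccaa
They lie at chr4:76023684-76023744 on the minus strand for CXCL10, chr11:313974-314034 on the plus strand for IFITM1 and chr10:89392482-89392542 on the plus strand for IFIT1, with the element at -221, -40 and -115 from the start. The letters, searched on both strands, were in 19 of 26 promoters of the list (73.1%) and in 6.44% of all promoters, and they were about as frequent among genes that rose (7.12%) as among genes that fell (6.71%).

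Genes of antigen presentation by class II molecules, which epithelia display when activated, had 4 of 15 higher and 0 lower. CD74, the invariant chain, was at 0.275 and 0.212 CPM under 5-FU and 15 and 3.21 CPM under AFZC, with 8 and 7 against 533 and 115 counts, 37.6-fold (95% exact interval 22.6 to 67.6) higher. HLA-DRA was read 0 times under 5-FU and 49 and 14 times under AFZC, which pooled is at least 18.3-fold higher. Both were several times higher in AFZC replicate 1 than in replicate 2. CIITA, the factor that switches these genes on, had 0.35 (adjusted p = 0.638). For class I presentation 6 of 22 rose and 1 fell, with 3 higher on leaving out 1 or the other 5-FU library. NLRC5, the class I counterpart of CIITA, was at 6.16 and 5.86 against 24.2 and 21.2 CPM (log2 fold change 1.92 ± 0.217 (SE), adjusted p = 0.000105), and PSMB9, a subunit of the immunoproteasome, rose by 1.74 (adjusted p = 0.00269), while HLA-B (0.2), HLA-C (-0.11) and B2M (0.3) did not pass.

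In the BCL2 family of death regulators 4 of 19 rose and 3 fell, which became 1 and 1 without 5-FU replicate 2. Among death receptors, caspases and inhibitors of apoptosis 4 of 32 rose and 3 fell, close to the 11.6% and 6.95% of all genes, and 2 rose and 1 fell without 5-FU replicate 2. BBC3, the PUMA activator of BAX, fell from 65.1 and 95.7 to 28.1 and 29.96 CPM (log2 fold change -1.47 ± 0.199 (SE), adjusted p = 0.000375), and MCL1 (-0.86) and BCL2L1 (-0.72), which hold BAX and BAK1 back, fell too (adjusted p = 0.00357 and 0.0395). BAX (-0.12) and BAK1 (-0.33) themselves did not pass. The rises of the family included BCL2L14 (2.03), BCL2L12 (1.19) and BCL2 itself (1.04), with adjusted p = 0.032, 0.00221 and 0.0423. In 12 alternative fits the call of BCL2L14 was lost in 3 and that of BCL2 in 6. CASP10, an initiator caspase, rose from 0.413 and 0.816 to 7.32 and 5.97 CPM (log2 fold change 3.41 ± 0.365 (SE), adjusted p = 6.6e-05) and the receptor FAS from 1.89 and 2.42 to 5.32 and 5.5 CPM (log2 fold change 1.32, adjusted p = 0.00264). The TRAIL receptors TNFRSF10A (-0.6) and TNFRSF10B (-0.86) fell (adjusted p = 0.0459 and 0.00455). DDB2, of nucleotide excision repair, rose by 1.36 and POLH, the polymerase that copies past lesions, by 1.25 (adjusted p = 0.000217 and 0.000546). MDM2, a ubiquitin ligase, was at 35.9 and 41.5 against 43.3 and 50.7 CPM (adjusted p = 0.544), with groups that did not overlap.

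Genes of lipid peroxidation and its suppression had 5 of 29 higher and 2 lower, beside 11.6% and 6.95% of all genes. The number higher was 13 with library totals, and both numbers varied on leaving out 1 library. GPX4, the enzyme that reduces lipid hydroperoxides in membranes, was at 242 and 273 CPM under 5-FU and 188 and 189 CPM under AFZC, with log2 fold change -0.45 ± 0.168 (SE, adjusted p = 0.0812). Both AFZC libraries were below both 5-FU libraries, but the difference did not pass. ACSL4, which loads membranes with oxidisable fatty acids, was at 274 and 295 against 245 and 171 CPM (log2 fold change -0.45, adjusted p = 0.0978), and SLC7A11, the cystine carrier that feeds glutathione synthesis, at 181 and 159 against 43.7 and 118 CPM (log2 fold change -1.07, adjusted p = 0.135, and 0.000955 without AFZC replicate 2). AIFM2, a reductase of coenzyme Q, was at 146 and 167 against 102 and 102 CPM (log2 fold change -0.62, adjusted p = 0.00969, and 0.125 without 5-FU replicate 2). Among the rises was ACSL5, another fatty acid ligase, from 33.8 and 29.7 to 97.6 and 163 CPM (log2 fold change 2.04, adjusted p = 0.000134).

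Glutathione genes had 5 of 29 higher and 2 lower, with 2 higher without 5-FU replicate 1, 5-FU replicate 2 or AFZC replicate 1, and the peroxidases of the family parted. GPX2, the gastrointestinal glutathione peroxidase, fell from 899 and 1202 to 290.3 and 256 CPM (log2 fold change -1.94 ± 0.234 (SE), adjusted p = 0.000163). GPX3, the secreted form, rose from 1.72 and 2.39 to 17.5 and 16.7 CPM and GPX8, of the endoplasmic reticulum, from 0.585 and 0.483 to 3.15 and 6.67 CPM (log2 fold changes 3.05 and 3.2, adjusted p = 0.000311 and 0.000116). The 2 subunits of glutamate-cysteine ligase, the first step of glutathione synthesis, had -0.25 (GCLC) and -0.2 (GCLM) and did not pass. Peroxide and superoxide defence had 1 of 25 higher and 3 lower. TXNIP, which binds and blocks thioredoxin, was at 5146 and 6233 CPM under 5-FU and 1840 and 2484 CPM under AFZC (log2 fold change -1.4 ± 0.22 (SE), adjusted p = 0.00171), and thioredoxin itself, TXN, fell from 265 and 288 to 145 and 159 CPM (adjusted p = 0.00359). SOD1 (0.21), SOD2 (0.19) and CAT (-0.2) did not pass.

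Targets of NRF2, the factor that cells free under electrophilic and oxidative stress, had 2 of 28 higher and 11 lower. The lower count was 7, 5 and 6 without 5-FU replicate 1, 5-FU replicate 2 and AFZC replicate 1, and 4 with library totals as scaling and 5 with the level trend taken out. NQO1, a quinone reductase, was at 813 and 930.2 against 382 and 477 CPM (log2 fold change -1.02, adjusted p = 0.00159). HMOX1, heme oxygenase, was at 4.44 and 6.16 against 12.1 and 8.82 CPM (log2 fold change 0.98, adjusted p = 0.0185), a rise lost without 5-FU replicate 1 (adjusted p = 0.137) or AFZC replicate 1 (adjusted p = 0.104). TXNRD1 (-0.17) and SRXN1 (-0.29), widely used NRF2 readouts, did not pass.

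Iron genes had 4 of 24 higher and 3 lower, beside 11.6% and 6.95% of all genes, and both numbers varied on leaving out 1 library. TFRC, the transferrin receptor, was at 294 and 286 against 192 and 373 CPM (log2 fold change -0.04, adjusted p = 0.954), so that the AFZC libraries lay on both sides of the 5-FU pair. FTH1, the ferritin heavy chain, was at 1569 and 2497 against 619 and 1867 CPM (adjusted p = 0.322), with -1.72 without AFZC replicate 2 (adjusted p = 0.000885) and -0.12 without AFZC replicate 1, although 62.4% of its exon bases are shared with BEST1. TFR2, the second transferrin receptor, rose from 0.723 and 1.09 to 4.62 and 3.57 CPM (log2 fold change 2.17, adjusted p = 0.000989). Metallothioneins, read under the zinc sensor MTF1, and zinc transporters together had 5 of 28 higher and 2 lower, beside the same shares of all genes. Both of these numbers also varied on leaving out 1 library. MT1F was at 1.45 and 3.05 CPM under 5-FU and 9.2 and 15.6 CPM under AFZC (log2 fold change 2.46 ± 0.396 (SE), adjusted p = 0.0012) and MT1A at 1.34 and 2.39 against 7.07 and 9.1 CPM (adjusted p = 0.00663, and just over 0.05 without 5-FU replicate 1). MT2A, the most abundant of them, was at 59 and 147 against 101 and 219.6 CPM, with overlapping groups (log2 fold change 0.64, adjusted p = 0.408). SLC30A1, the zinc exporter that MTF1 controls, was at 88.8 and 118 against 81.3 and 62.4 CPM (log2 fold change -0.52, adjusted p = 0.0785). Of 20 copper and lipoylation genes edgeR called 0, with 2 lower and 0 higher at an unadjusted p under 0.05 and 0 called by DESeq2. Of 22 genes of the unfolded protein response edgeR called 0, with 1 higher and 2 lower at an unadjusted p under 0.05 and as many called by DESeq2. This list moved with the setting: 8 were lower without AFZC replicate 2, 4 were higher with library totals and 3 were higher with the level trend taken out. Among their members SLC31A1, the copper importer, had 0.17 and HSPA5, the chaperone of the endoplasmic reticulum, -0.41.

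Heat shock proteins and co-chaperones had 2 of 33 higher and 6 lower, with 2 lower without 5-FU replicate 2, 4 without AFZC replicate 1, 3 with library totals and 1 with the level trend taken out. HSPA8, the constitutive HSP70, was at 1831 and 2497 CPM under 5-FU and 1011 and 681 CPM under AFZC (log2 fold change -1.36 ± 0.229 (SE), adjusted p = 0.00162), and HSP90AB1, the constitutive HSP90, at 1952 and 2012 against 848 and 819 CPM (log2 fold change -1.25 ± 0.182 (SE), adjusted p = 0.000616). With the level trend taken out neither passed (adjusted p = 0.179 and 0.241). HSPA1A, the inducible HSP70, was at 29.5 and 39.3 against 66.5 and 24.4 CPM, with overlapping groups (adjusted p = 0.501).

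The ATF4 response, which cells mount when amino acids run short, had 9 of 39 genes lower and 0 higher, and its count varied with the libraries: 3 and 2 without 5-FU replicate 1 or 2, 4 without AFZC replicate 1 and 25 without AFZC replicate 2. SLC38A2, an amino acid carrier, was at 1628 and 2063 CPM under 5-FU and 507 and 779.5 CPM under AFZC (log2 fold change -1.52 ± 0.224 (SE), adjusted p = 0.000673), and SLC7A5, the large neutral amino acid carrier, at 345 and 385 against 122 and 219.7 CPM (adjusted p = 0.00556). DDIT4, an inhibitor of mTORC1, was at 637 and 698 against 69.8 and 223 CPM (log2 fold change -2.19, adjusted p = 0.0196), with its call lost without 5-FU replicate 1 or 2 (0.118 and 0.168). ATF3 (-0.15), DDIT3 (-0.36) and ASNS (-0.17), commonly read as its output, did not pass.

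Sterol and fatty acid synthesis had 15 of 33 genes lower and 0 higher. INSIG1, which holds SREBP in the endoplasmic reticulum, was at 162 and 296 CPM under 5-FU and 70.8 and 50.5 CPM under AFZC (log2 fold change -1.92 ± 0.317 (SE), adjusted p = 0.00301). MSMO1, a demethylase of the sterol pathway, was at 134 and 232 against 74.7 and 57.7 CPM (adjusted p = 0.00116). For both the higher 5-FU library was replicate 2, and AFZC was below the pair. SREBF1, which encodes one of the SREBP factors, fell by 1.12 (adjusted p = 0.00161). The count of 15 was 5 without 5-FU replicate 2, 9 without AFZC replicate 2, 6 with library totals as scaling and 7 with the level trend taken out.

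Of immediate early genes and feedback inhibitors of the ERK pathway 12 of 36 fell and 1 rose, but 3 fell without 5-FU replicate 2 or with library totals as scaling, and 6 with the level trend taken out. PHLDA1 was at 1551 and 1369 CPM under 5-FU and 501 and 646 CPM under AFZC (log2 fold change -1.35 ± 0.183 (SE), adjusted p = 0.000375), and DUSP4, a phosphatase of ERK, at 278 and 325 against 113 and 139 CPM (adjusted p = 0.000869). Of WNT targets and crypt stem cell genes 2 of 28 rose and 6 fell, which turned to 6 and 3 with library totals. NOTUM, a secreted WNT inhibitor and WNT target, was at 975 and 872 against 340.1 and 270.3 CPM (log2 fold change -1.6 ± 0.188 (SE), adjusted p = 0.000134), and NKD1, another feedback gene, fell by 1.37 (adjusted p = 0.00297, and 0.0543 with the level trend taken out). CD44, an adhesion receptor, rose from 5.06 and 10.2 to 24.9 and 36.9 CPM (log2 fold change 2.01, adjusted p = 0.000751). AXIN2 (-0) and LGR5 (0.55), a WNT readout and a stem cell receptor, did not pass (adjusted p = 1 and 0.336). Of Notch, BMP and TGF-beta genes 2 of 33 rose and 7 fell, which turned to 8 and 4 with library totals. ID1, a direct BMP target that blocks differentiation factors (chromosome 20, 31605283 to 31606515), was at 245 and 340.4 CPM under 5-FU and 56.8 and 62.8 CPM under AFZC (log2 fold change -2.29 ± 0.24 (SE), adjusted p = 6.56e-05). NOTCH3 rose from 5.23 and 7.01 to 20.01 and 14.7 CPM and its target HEYL from 1.55 and 2.75 to 7.91 and 4.99 CPM (adjusted p = 0.000441 and 0.00413). For the genes of this paragraph given with their libraries, the groups did not overlap.

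Junction and adhesion genes of epithelia had 4 of 33 higher and 10 lower, with 3 lower without 5-FU replicate 2, 6 without AFZC replicate 1, 4 with library totals and 6 with the level trend taken out. ITGB4, the integrin of hemidesmosomes, was at 2065 and 2230 CPM under 5-FU and 614 and 711 CPM under AFZC (log2 fold change -1.7 ± 0.174 (SE), adjusted p = 4.82e-05), and its partner ITGA6 fell by 1.22 (adjusted p = 0.00129). CDH1, which encodes E-cadherin, had -0.27 and EPCAM -0.39, neither of which passed. Mesenchymal genes had 5 of 30 higher and 2 lower, with 3 higher without AFZC replicate 1. FN1, which encodes fibronectin, was at 4.55 and 5.5 against 38.2 and 31.4 CPM (log2 fold change 2.79 ± 0.22 (SE), adjusted p = 7.67e-06) and LOXL2, a collagen crosslinker, at 4.1 and 3.44 against 31.8 and 17.9 CPM (adjusted p = 0.000266). VIM (0.46) and SNAI1 (-0) did not pass, and ZEB1 fell (-0.9, adjusted p = 0.0291). Intestinal differentiation had 7 of 29 higher and 1 lower, with 3 higher without 5-FU replicate 1 and 4 without AFZC replicate 1. GUCA2A, which encodes guanylin of mature enterocytes, had 8 and 2 counts under 5-FU and 199 and 80 under AFZC, 24.3-fold (95% exact interval 13 to 51.2) higher, and FCGBP, a mucus protein of goblet cells, rose from 1.38 and 1.87 to 13.7 and 5.97 CPM (adjusted p = 0.000554). HNF4A, a master regulator of enterocytes, fell by 0.83 (adjusted p = 0.0109).

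Several markers of other cell types rose from very low levels beside the inflammatory, class II and mesenchymal genes. Each of 4 lists held 12 markers. Of the fibroblast markers 6 were tested and 4 rose (THY1, ACTA2, PDGFRB and COL6A3), with a summed level of 53.8 and 58.8 CPM under 5-FU and 95 and 77.7 CPM under AFZC. Of myeloid markers 2 of 5 tested rose (sums of 6.75 and 9.15 against 48.7 and 25.1 CPM), of lymphoid markers 2 of 5 (1.03 and 1.03 against 7.6 and 3.4 CPM), and of endothelial and erythroid markers 2 of 5 (6.82 and 7.7 against 22.6 and 16.5 CPM). AFZC replicate 1 had the higher sum in each. Markers with too few counts were not tested, and a marker near 0 under 5-FU could pass the filter through its AFZC counts. The share of tested markers that rose therefore partly follows from the filter. THY1, a surface protein of fibroblasts, had 4 and 5 counts under 5-FU and 173 and 80 under AFZC, 24.5-fold (95% exact interval 12.7 to 54.2) higher, and CSF1R, a macrophage receptor, was at 1.1 and 0.665 against 5.69 and 8.15 CPM (adjusted p = 0.000575). Of lymphoid markers CD79B had 2 and 4 counts under 5-FU and 135 and 31 under AFZC, and CD3D 0 and 4 against 53 and 46, the call of CD3D being lost without 5-FU replicate 1 or AFZC replicate 1 (adjusted p = 0.0807 and 0.0777). VWF, of endothelium, had 87 and 107 counts against 483 and 378. Of 15 markers of colon epithelial lines 2 rose (KRT20 and GPA33, 2.45) and 6 fell (KRT8, KRT18, KRT19, HNF4A, ELF3 with -0.92 and TJP3 with -0.85), the falls being 3 without 5-FU replicate 2 or with library totals. The call of GPA33 was lost without 5-FU replicate 1, 5-FU replicate 2 or AFZC replicate 1 (adjusted p = 0.0895, 0.0624 and 0.0541), while EPCAM and CDX2 (-0.2) did not pass. The part of other cell types in these rises was not tested.

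The largest rises among genes with a mean of at least 1 on the log2 CPM scale were of mixed function. ACVRL1, a BMP receptor of endothelium, was at 0.516 and 0.604 CPM under 5-FU and 17.4 and 9.26 CPM under AFZC (log2 fold change 4.56 ± 0.4 (SE), adjusted p = 1.43e-05). SPOCD1, a nuclear protein of the germ line, was at 0.792 and 0.604 against 17.6 and 12.3 CPM (log2 fold change 4.42 ± 0.372 (SE), adjusted p = 1.06e-05). RIBC2, a protein of cilia, was at 0.516 and 0.514 against 7.88 and 7.45 CPM (log2 fold change 3.89 ± 0.334 (SE), adjusted p = 1.24e-05), with close libraries within each pair. NOS3, a nitric oxide synthase of endothelium, rose from 2.48 and 3.05 to 46.5 and 25.4 CPM, SPN, a sialoglycoprotein of leukocytes, from 1.41 and 3.78 to 68.8 and 26 CPM, and TIE1, an endothelial receptor kinase, from 1.52 and 2.36 to 44.7 and 25.3 CPM (adjusted p = 8.76e-06, 0.000846 and 0.00145). CRABP2, which carries retinoic acid to the nucleus, was among the abundant genes per length that rose at least 2-fold, from 30.6 and 35 to 128 and 94.3 CPM (log2 fold change 1.76 ± 0.202 (SE), adjusted p = 0.000114). Of the largest falls outside the histones, LEMD1 was at 67.1 and 71.3 against 14.3 and 13.6 CPM (log2 fold change -2.31 ± 0.189 (SE), adjusted p = 9.43e-06), with close values within each pair.

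Of EGF family ligands, ErbB, FGF and Eph receptors 2 of 25 rose and 6 fell, but 0 of either without 5-FU replicate 2, 4 rose and 0 fell with library totals, and 1 fell with the level trend taken out. With all libraries ERBB2 (-0.59) and ERBB3 (-0.66) fell, and EGFR, at 9.09 and 10.2 against 17.1 and 35.6 CPM, rose by 1.45 (adjusted p = 0.00807, but 0.0731 and 0.0666 without 5-FU replicate 1 or 2). Of lysosome and autophagy genes 5 of 35 rose and 6 fell, the falls being 0 without 5-FU replicate 2, 1 without AFZC replicate 1 and 0 with library totals, where 14 rose. The rises were led by the proteases CTSS, from 0.551 and 1.33 to 8.39 and 10.5 CPM, and CTSH, from 5.13 and 6.77 to 19.8 and 11.8 CPM (adjusted p = 0.000604 and 0.00292). The falls included the autophagy receptor SQSTM1 (-0.62) and the kinase ULK1 (-0.68), which starts autophagy (adjusted p = 0.0271 and 0.0107). Nucleoporins and lamins, the proteins of the nuclear pore and envelope, had rises of 0.65 for NUP43 to 0.995 for LMNB1. The list had 7 of 32 higher and 0 lower, with 2 lower at an unadjusted p under 0.05. It was 2 higher without 5-FU replicate 2, and the call of LMNB1, the largest rise, was lost without any 1 of the libraries (adjusted p = 0.15, 0.248, 0.135 and 0.211). Of ABC transporters 3 of 23 rose and 2 fell, near the 11.6% and 6.95% of all genes, among them ABCA1, the cholesterol exporter, from 0.723 and 0.483 to 5.66 and 2.73 CPM (log2 fold change 2.8, adjusted p = 0.000379). ABCB1, the drug exporter, was at 83.3 and 85.9 against 78 and 91.3 CPM (adjusted p = 1). Cancer-testis antigens, which normal somatic tissue keeps silent, had 4 of 13 higher and 2 lower, with MAGEB2 at 2.75 and 2.54 against 15.5 and 14.1 CPM (log2 fold change 2.48 ± 0.182 (SE), adjusted p = 7.65e-06). The numbers higher and lower were 3 and 2 of 38 proteasome subunits, 0 and 3 of 35 splicing factors, 1 and 2 of 20 clock genes, 6 and 4 of 32 neuronal genes and 2 and 3 of 21 cornification genes.

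There were 88 genes with 0 counts in both 5-FU libraries and 10 or more in each AFZC library, 51 of them protein coding, against 1 gene in the opposite direction, MIR6859-3. Of the 88, 85 passed the test, which used the same counts that selected them, so this number is no separate support. PIGR, the receptor that carries antibodies across gut epithelium, had 155 and 94 counts in the AFZC libraries, which pooled is at least 72.3-fold higher than 3 counts over the 5-FU group. ARL11, a small GTPase, had 108 and 34 counts (at least 41.2-fold), CD40, a costimulatory receptor, 103 and 26 (at least 37.4-fold), DYDC2 82 and 45 (at least 36.9-fold) and AL590004.3, a gene with a clone name, 101 and 12 (at least 32.8-fold). AFZC replicate 1 held the larger count in all 5, and for AL590004.3 without it the adjusted p was 0.0733. CD40 was also the highest in AFZC of the 37 genes that HCT116 expressed and SW620 under 5-FU did not, at 2.9 and 0.725 CPM. These bounds cover counting error only.

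**Figure D4:**
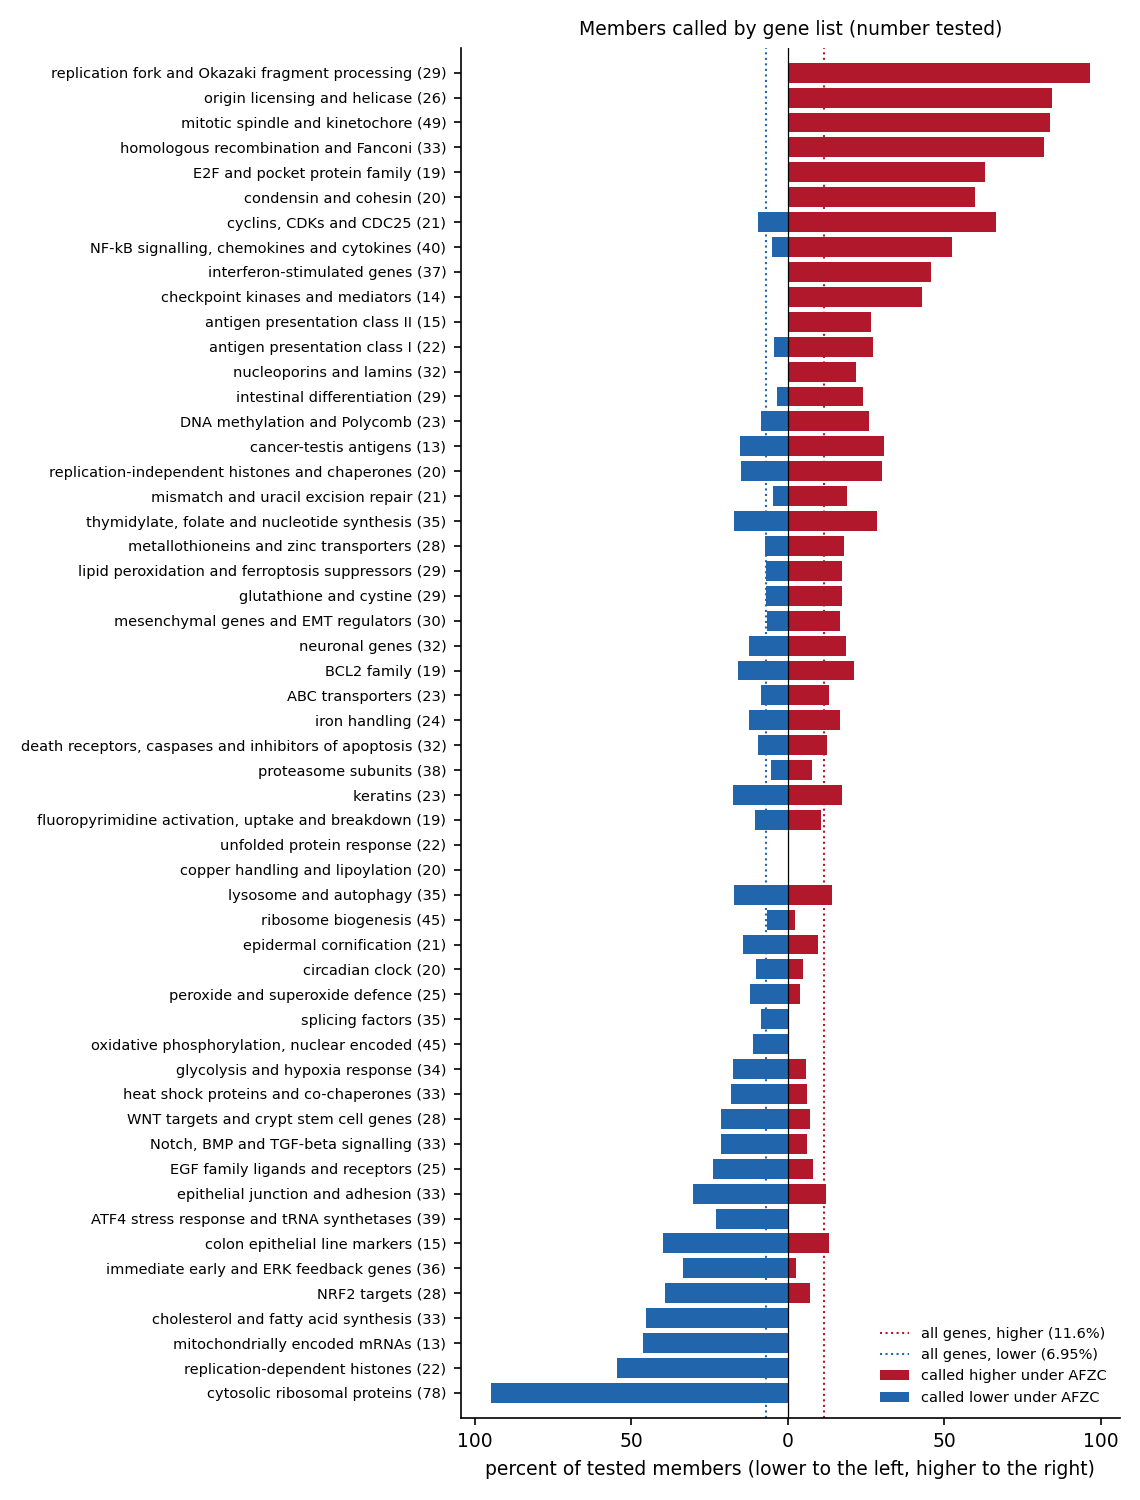
Percent of tested members that rose (right) or fell (left) under AFZC in SW620, for each gene list with 12 or more tested members, whose number is in brackets. Dotted lines give the shares over all genes, 11.6% and 6.95%, and the lists for replication, mitosis and recombination stand at the top with more than 80% higher while ribosomal proteins stand at the bottom with 74 of 78 lower.

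HCT116 serves to show where these effects differ between the lines, by a test of the difference of the 2 effects in the same model. The AFZC effect was greater in SW620 for 1207 genes (5.65%) and smaller for 884 (4.14%). The 2 effects share no library. For origin licensing the difference was greater in SW620 in 22 of 26 genes, for the replication fork in 24 of 29, for recombination in 22 of 33 and for mitosis in 23 of 49, with 0 smaller in each list. GINS2 had means of 33.3 CPM under 5-FU and 24.6 CPM under AFZC in HCT116 (log2 fold change -0.43), and the difference between the lines was 3.04 ± 0.28 (SE, adjusted p = 0.000102). TYMS had a log2 fold change of 0.59 in HCT116 and a difference of 2.04 ± 0.373 (adjusted p = 0.0052). For PCNA both lines rose, by 2.03 and 1.24, with a difference of 0.78 (adjusted p = 0.051). The effect on CDKN1A was smaller in SW620, 0.71 against 3.33 (difference -2.62 ± 0.295, adjusted p = 0.000299), and so was that on MDM2, 0.28 against 2.75 (adjusted p = 0.00453).

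Keratins also parted between the lines. The effect was smaller in SW620 for 8 of 23 and greater for 1, with KRT8 at -2.04 in SW620 and 0.72 in HCT116 (adjusted p of the difference 0.000801). Junction and adhesion genes had 10 of 33 smaller and 1 greater. NF-kB genes had 8 of 40 greater and 1 smaller, and interferon-stimulated genes 6 of 37 greater and 0 smaller. Sterol synthesis had 4 of 33 smaller. Replication-dependent histones had 6 of 22 smaller. Ribosomal protein genes had 0 of 78 with a difference by edgeR (3 of 78 at an unadjusted p under 0.05), while 61 of 78 fell in HCT116, where the median log2 fold change was -0.81 and that of SW620 -1.06. A difference that misses the threshold does not show that the lines were alike.

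**Figure D5:**
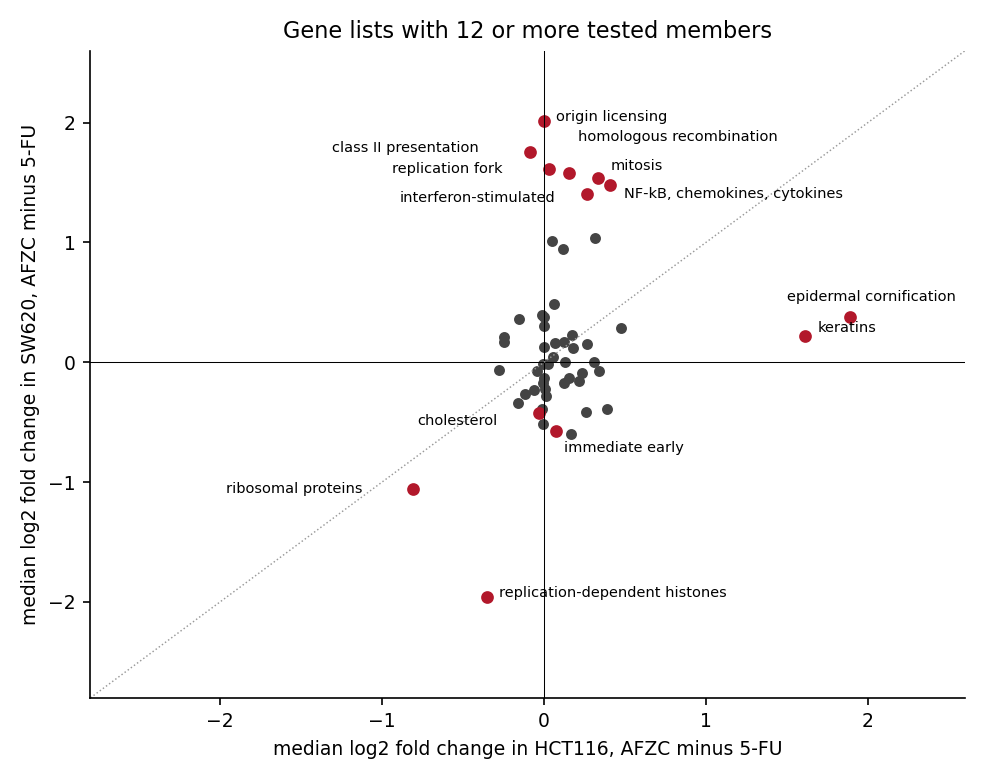
Median log2 fold change of each gene list with 12 or more tested members, AFZC minus 5-FU, in SW620 (vertical) against HCT116 (horizontal), with the line of equal effects dotted. Replication, mitosis and recombination lists lie between -0.01 and 0.34 in HCT116 and above 1.5 in SW620, keratins and cornification lie to the right, and ribosomal proteins lie near the line.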

How the data were processed

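Gene counts of 8 poly(A)-selected, non-strand-specific RNA-seq libraries were used as deposited by the authors, whole numbers with no normalization, in a table of 57169 gene rows. Per the submitters' processing notes, reads were handled with trimming (Trimmomatic, cutadapt), alignment (STAR, HISAT2), counting (featureCounts) and testing tools (edgeR, DESeq2) besides FastQC, on GRCh38, with no order given. The ratio of genes at 2 counts to genes at 1 count was 1.68 to 1.84, so both mates of a pair may have been counted. That would overstate the depth, and intervals and bounds cover counting error only.

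Counts were fitted in edgeR 4.0.16 (limma 3.58.1, R 4.3.3) with its filter at a minimum count of 10, trimmed-mean (TMM) factors, a mean for each of 4 groups over all 8 libraries, so that HCT116 also informs the spread, and the robust quasi-likelihood F test. The SW620 contrast was AFZC minus 5-FU, and the difference between lines was its contrast with HCT116. Procedures were tested on simulated data. The alternatives were DESeq2 1.42.0, other scalings and filters, SW620 alone, a replicate block and each library left out. A fit with each library's trend against level taken out was added after seeing the data.

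The lists, members and tests were chosen with earlier results of these data known. The genes named are the 12 largest changes and the 6 most abundant per length with at least a 2-fold change in each direction, those with 0 counts in 1 group and the most in the other, the 4 most changed called members of each list, and 18 genes set by name. Other members, and the promoters printed, were chosen after their values were seen, and alternatives were computed for the genes of the rule and for list counts. RefSeq promoters (GRCh38.p14) matched 13080 of the genes tested, 448 of them by a synonym. Genes on 1 chromosome were left out of the sequences printed, whatever their change. Windows also had to hold 26 bases on each side of the first match within the promoter. Some genes of the rule and 1 of the gene lists are not reported here, and that list is not drawn in the figures.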

Additional observations from a re-analysis of the deposited data

Results flagged for a closer look

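Of 262 genes named by the rule, 140 differed between SW620 and HCT116 in the AFZC effect by edgeR's test of the difference (adjusted p under 0.05). Over all genes tested the effect was greater in SW620 in 5.65% and smaller in 4.14%. Most of the 262 were named for a large change in SW620, so the 140 also reflects that choice. Of the 140, 10 were also called in opposite directions in the 2 lines. The following values are the log2 difference, SW620 minus HCT116. In 8 genes AFZC lowered the level in SW620 and raised it in HCT116: HBEGF (-3.10) and EPHA2 (-2.8), a ligand and a receptor of growth signalling, KLK6 (-2.55), a secreted protease, FOSL1 (-2.53), an AP-1 subunit, BHLHE40 (-2.50), a repressor linked to the clock, INHBB (-2.48), an inhibin subunit, BBC3 (-2.23) and AIFM2 (-1.64). In 2 genes AFZC raised the level in SW620 and lowered it in HCT116: SPARC (6.32), a matrix protein, and GSTM2 (3.57), a glutathione transferase. The SW620 calls of 5 of the 10 rest on single libraries. Without 5-FU replicate 1 the adjusted p was 0.101 for HBEGF, 0.0674 for EPHA2 and 0.22 for GSTM2. Without 5-FU replicate 2 it was 0.192 for HBEGF, 0.292 for EPHA2, 0.199 for BHLHE40, 0.125 for AIFM2 and 0.0666 for GSTM2. Without AFZC replicate 1 it was 0.224 for HBEGF, 0.293 for EPHA2, 0.191 for BHLHE40 and 0.358 for GSTM2, and without AFZC replicate 2 it was 0.0737 for EPHA2 and 0.14 for BHLHE40.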

How the results depend on the processing

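With library totals as scaling, SW620 had 5141 genes higher and 445 lower (2482 and 1486 with TMM), the difference from HCT116 was greater for 2455 and smaller for 430 (1207 and 884), and the log2 fold change of TFRC turned to 0.33. With no low-count filter, where more genes are tested, 1848 differences were greater. Leaving out 1 library, which leaves a lone sample assumed to vary like the other groups, gave 1135 to 2432 genes higher, 448 to 1411 lower, 655 to 1521 differences greater and 362 to 939 smaller. Without AFZC replicate 1 the log2 fold changes of DPYD (-0.008), TFRC (0.372) and HSPA1A (-0.492) turned, against 0.807, -0.597 and 0.949 without AFZC replicate 2, and MT2A turned to -0.027 without AFZC replicate 2, against 1.441 without 5-FU replicate 2. With the level trend taken out, EEF1A1 (0.16), MT-CYB (0.048), MT-ATP6 (0.226), TFRC (0.378) and MYC (0.13) turned. The share of promoters with an E2F site among genes that rose was 3.82% on the sense strand alone and 7.06% on both strands, against 2.66% and 4.89% of all promoters. The cause of these changes was not tested.

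DESeq2's size factors, its test, a minimum count of 30, SW620 alone and the trend taken out kept the numbers higher and lower within 1.5 times. DESeq2 called 2664 higher and 1751 lower. Of the 3968 calls, 3830 were shared with DESeq2's test and 3237 with the fit of SW620 alone. The labels state no pairing by replicate number. Deviations of same-numbered SW620 libraries correlated at -0.025 and those of HCT116 at 0.021. This showed no shared shift but cannot exclude that they were prepared together. With the replicate block 2354 genes were higher and 1486 lower, 3580 of them shared. With 2 libraries a group, 10 counts or fewer limit what can be seen in scarce genes, and 6917 genes had an unadjusted p under 0.05.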
